A study of Mus musculus with 502 samples.

Results

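The levels of 10 genes of the lysosomal proteolysis machinery were followed through single immune cells of the mouse kidney, namely the cathepsin genes Ctsa, Ctsb, Ctsc, Ctsd, Ctsh, Ctsl, Ctss and Ctsz, the asparaginyl endopeptidase gene Lgmn, and Cd68, which codes for a lysosomal membrane glycoprotein. They were taken by symbol from a count table of 46603 gene rows, and all 10 had reads, as did 20568 rows in all. The study asked whether resident immune cells keep their transcriptome when the intact kidney is stored cold before dissociation. Kidneys of CD1 wild type mice (an outbred stock) about 3 weeks old were dissociated at once (fresh) or after storage for 6 h or for up to 4 days in the organ preservation solution HTS-FRS at 4 °C. Live (propidium iodide-negative) Cd45+ cells were index sorted into plates, and full-length cDNA of each cell was sequenced after a protocol adapted from SmartSeq2. The table holds 502 cells: 75 fresh cells of library pool IM793 and 81 of pool IM834, 76 cells of 6 h and 78 of day 2 (IM793), 75 of day 1 and 82 of day 3 (IM834), and 35 of day 4 in 3 pools. No label names an animal, and the tissue pooled for a timepoint came from the same mouse according to the methods, so each timepoint was treated as 1 sample. The p-values rest on the spread between timepoints, not between cells. The tests also draw the variance of a gene in part from all genes, which weighs most with few timepoints. The fresh cells come in a pair of pools and the day 4 cells in 3, so these timepoints may hold more than 1 mouse.

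Cathepsins are proteases that are made as inactive precursors, sorted to the lysosome and activated at its acid pH, where they degrade proteins taken up by endocytosis, phagocytosis or autophagy. Most are cysteine proteases, while cathepsin D is an aspartic and cathepsin A a serine protease. Macrophages and dendritic cells use them to clear debris and to process antigen and the invariant chain for MHC class II, a step in which cathepsin S is best known. The genes are spread over the mouse genome (GRCm38), with Ctsa (chr2:164832873-164841032) and Ctsz (chr2:174427493-174439039) on chromosome 2, Ctss (chr3:95526786-95556403) on 3, Ctsc (chr7:88278085-88310888) and Ctsd (chr7:142375911-142388038) on 7, Ctsh (chr9:90054152-90076089) on 9, Cd68 (chr11:69664213-69666153) on 11, Lgmn (chr12:102394084-102439813) on 12, Ctsl (chr13:64359337-64370890) on 13 and Ctsb (chr14:63122462-63145923) on 14.

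Cells were sorted into gates by the reads of 5 genes, none of which is a member. A cell with at least 10 reads of only 1 of C1qb (a complement subunit gene of macrophages), Cd79a (the B cell receptor) and Cd3e (the T cell receptor complex) went to that gate. Of the rest, cells with at least 10 reads of Csf1r, the receptor of the macrophage growth factor, formed the Csf1r gate, and then those with at least 10 reads of S100a8, a calcium-binding protein gene of neutrophils and monocytes, the S100a8 gate. The C1qb gate held 94 cells of pool IM834, 29 of IM793 and 2 of IM790, the Cd3e gate 58, 45 and 3, the Csf1r gate 87 cells, the Cd79a gate 74 and the S100a8 gate 32, while 75 cells were in none and 3 in more than 1. Defining markers followed the gates: C1qa was read in 98.4% of C1qb cells, Cd79b in all Cd79a cells, Cd3d in 86.8% of Cd3e cells, S100a9 in 90.6% of S100a8 cells, and Plac8 and Ly6c2 (monocyte genes) in 83.9% and 49.4% of Csf1r cells. Markers of other types were also read: Ighm in 81.6% of C1qb cells, Cd3d in 34.4% of S100a8 cells, where Trac was not read (0 of 32 cells, which allows a share of up to 9.38%), and Csf3r in 56.3% of Csf1r cells. The part of such reads in the levels below was not tested. Cells had a median of 695188 counts on genes (1759 to 1895431). Values are rpm, reads scaled to 1000000 counts on genes, of a single cell or of all cells of a gate and timepoint summed, and intervals are 95% intervals that cover counting error only.

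The 10 genes together took the largest share of reads in C1qb cells. Summed over all timepoints they held 1.78% of counts in the C1qb gate, 1.15% in the Csf1r gate, 0.445% in the S100a8 gate, 0.272% in the Cd79a gate and 0.206% in the Cd3e gate. C1qb cells were above Csf1r cells, and both above the other gates, at each timepoint with at least 5 cells, but the order of the other 3 gates changed: fresh cells had 2303 rpm in the S100a8, 4035 in the Cd79a and 2317 in the Cd3e gate, and Cd3e cells were above Cd79a cells at day 1 (1975 against 1858 rpm) and day 3 (3764 against 2325 rpm). Per cell the median share was 1.70% of counts in C1qb cells (0 to 4.26%) and 0.192% in Cd3e cells (0 to 1.09%). At an equal depth of 100000 counts per cell, which 8 cells did not reach, C1qb and Csf1r cells had reads of a median of 8 of the 10 genes, S100a8 and Cd79a cells of 3 and Cd3e cells of 2. At least 7 genes were read in 16 of 16 fresh C1qb cells, in 39 of 54 at day 3 and in 8 of 13 at day 4, in 58 of 86 Csf1r cells and in 1 Cd3e cell.

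**Figure D1:**
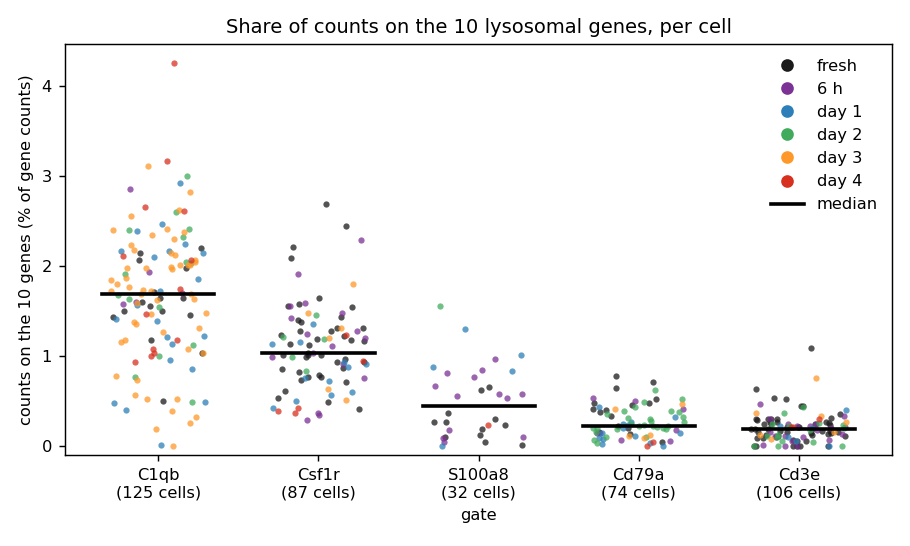
Each point is 1 cell, the vertical axis is the share of its gene counts that fell on the 10 genes (%), the horizontal axis is the gate, colours give the timepoint and the black lines are medians over the cells of a gate. The medians go down from 1.70% in the C1qb gate to 0.192% in the Cd3e gate.

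Within C1qb cells the 10 genes differed widely in level. Divided by exon length, so that genes can be compared, the summed level was 1888 rpm per kb for Ctss, 1193 for Ctsz, 895 for Cd68, 611 for Ctsb, 597 for Lgmn, 586 for Ctsc, 428 for Ctsa, 278 for Ctsh, 174.4 for Ctsd and 30.9 for Ctsl. Ctss was the highest and Ctsl the lowest on this scale at each of the 6 timepoints, but the order between them is not firm: Cd68 was above Ctsz at day 2 (1045 against 738 rpm per kb), Ctsb above Cd68 at day 1 (714 against 651), and Ctsb, Lgmn and Ctsc lie close together. In Cd3e cells the order was another one, with Ctsd at 348 rpm per kb ahead of Ctss at 108.3 and Cd68 at 3.64.

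**Figure D2:**
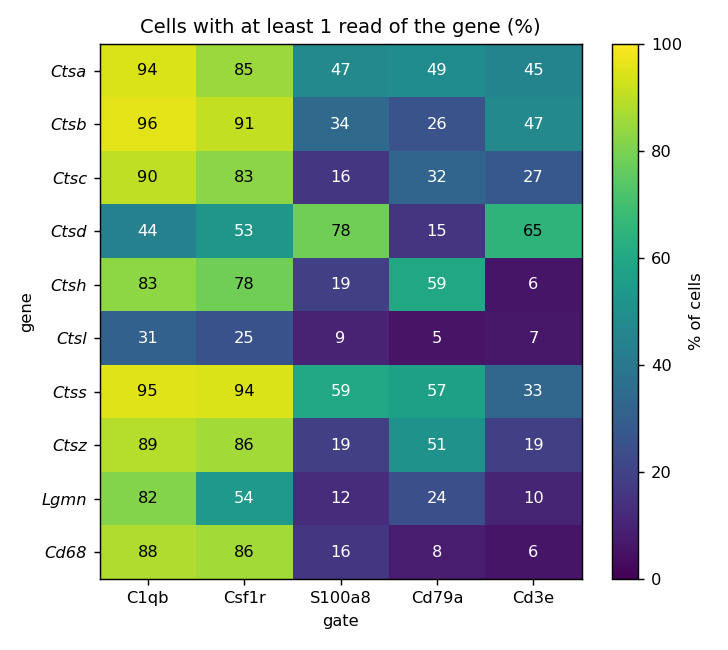
Share of cells (%) with at least 1 read of each gene (rows) in each gate (columns). Of the 10 genes, 8 were read in over 80% of C1qb cells, and the row of Ctsd is highest in the S100a8 gate (78.1%) and lowest in the Cd79a gate (14.9%).

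Among the cysteine endopeptidases, Ctsb and Ctss were the most widely read. Ctsb, a broad lysosomal protease that can also trim peptides from their ends, was read in 96% of C1qb cells (90.9 to 98.7%), 90.8% of Csf1r cells, 47.2% of Cd3e cells, 34.4% of S100a8 cells and 25.7% of Cd79a cells. Its summed level in C1qb cells was 3077, 3348, 4318, 3761, 3392 and 4849 rpm from fresh to day 4. In Cd3e cells it was 397, 297, 491, 304 and 779 rpm from fresh to day 3. No timepoint of the Cd3e gate reached the lowest of the C1qb gate.

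Ctss, the cathepsin that cleaves the invariant chain and stays active at neutral pH, was the member with the highest level per length in the C1qb and Csf1r gates. Its summed level was 2457, 2660.0, 2126, 3531, 2045 and 3435 rpm in C1qb cells in the same order of timepoints, and 3833, 3889.8, 1172, 2703, 3195 and 1286 rpm in Csf1r cells. It was read in 95.2% of C1qb and 94.3% of Csf1r cells, against 59.4% of S100a8, 56.8% of Cd79a and 33% of Cd3e cells. The sums of both gates overlap. Ctsl, an endopeptidase known for invariant chain cleavage in thymic epithelium, was the lowest member per length in C1qb cells, with reads in 31.2% of them (23.2 to 40.1%) and in 6.60% of Cd3e cells, and with sums of 153.3 to 296 rpm over the timepoints of the C1qb gate. At day 3 Ctsd was below it in rpm (119.8 against 153.3) and in cells with a read (27.8% against 29.6%).

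Ctss, the member highest per length in C1qb cells, and Ctsd, the one whose distribution over gates differs from the rest below, were chosen to show their promoter sequence, and the 250 bases before their annotated starts are shown (RefSeq, mouse build GRCm38.p6). The Ctss stretch lies at chr3:95526536-95526785 on the forward strand, and the Ctsd stretch at chr7:142387828-142388077 on the reverse strand, both written 5′ to 3′ with motif matches in capitals. Part of the Ctsd stretch lies within the gene as GENCODE M21 draws it, since its start there is further upstream.
Ctss: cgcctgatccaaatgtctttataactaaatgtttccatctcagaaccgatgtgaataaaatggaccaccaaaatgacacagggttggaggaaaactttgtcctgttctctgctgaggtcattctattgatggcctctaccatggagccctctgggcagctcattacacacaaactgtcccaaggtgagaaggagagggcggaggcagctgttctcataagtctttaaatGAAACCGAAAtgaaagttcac
Ctsd: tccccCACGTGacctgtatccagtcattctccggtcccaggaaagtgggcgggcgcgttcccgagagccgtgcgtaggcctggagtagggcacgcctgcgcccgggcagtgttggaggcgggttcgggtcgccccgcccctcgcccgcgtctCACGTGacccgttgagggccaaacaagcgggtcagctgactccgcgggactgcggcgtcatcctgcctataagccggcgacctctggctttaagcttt
The capitals in Ctss mark the core of an interferon-stimulated response element, which starts 21 bases before the start. The capitals in Ctsd mark CACGTG, the E-box that factors of the TFEB family bind in many lysosomal genes, once near the far end of the stretch and once 98 bases before the start. Of the 8 members with such a stretch in the table used (none for Ctsb and Ctsh), 4 held CACGTG (Ctsa, Ctsd, Ctsl and Lgmn), 1 held the response element (Ctss) and 1 held the ETS motif AGGAAGT (Ctsc). These 8 members have 10 stretches in the table, of which 4 held CACGTG, 1 the response element and 1 the ETS motif. The stretches of Ctsa, Ctsl and Lgmn that held CACGTG lie within the gene as GENCODE M21 draws it. Ctsa and Lgmn each have another stretch further upstream, and it held no CACGTG. Over all 32851 stretches of the same length, 6.02% held CACGTG, 2.98% the response element and 7.69% AGGAAGT on either strand. The motifs were chosen after these sequences had been seen, the 3 do not overlap in these stretches, and a match is a description of letters only.

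Lgmn, which cuts after asparagine and activates other cathepsins, was the member that parted C1qb from Csf1r cells most. Its summed level in C1qb cells was 1469, 1883, 1185, 1982, 1106 and 1291 rpm from fresh to day 4, and in Csf1r cells 355, 379, 108.6, 63, 338 and 27.6 rpm. Every sum of the C1qb gate lay above every sum of the Csf1r gate. It was read in 81.6% of C1qb cells (73.7 to 88%), 54% of Csf1r cells (43 to 64.8%), 24.3% of Cd79a cells and 10.4% of Cd3e cells.

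The exopeptidases Ctsc, Ctsh and Ctsz, which remove residues from the ends of peptides, had, over all timepoints, higher summed levels in C1qb and Csf1r cells than in the other 3 gates. For Csf1r cells this did not hold at each timepoint. At day 3 Ctsc had 36.8 rpm in Csf1r against 662 in Cd3e cells, and Ctsh 271 in Csf1r against 792 in Cd79a cells. The fitted log2 difference of Ctsh for Csf1r minus Cd79a was 0.29 ± 0.66. Ctsc, which activates granule serine proteases, was read in 90.4% of C1qb and 82.8% of Csf1r cells and in 15.6% of S100a8 cells. Ctsc sums in C1qb cells stayed between 2684 and 3699 rpm. In Csf1r cells they were 2767, 2346, 1003, 262.05, 36.8 and 729.6 rpm, but the last 3 of these values rest on 5 or 6 cells each. Ctsh, an aminopeptidase, was read in 83.2% of C1qb cells, 59.5% of Cd79a cells (47.4 to 70.7%) and 5.66% of Cd3e cells (2.11 to 11.9%). In the Cd79a gate its sums were 604, 355, 710.8, 565 and 792 rpm from fresh to day 3, and in the Cd3e gate 2.40, 0, 60.7, 0.0688 and 0 rpm, so the Cd79a and Cd3e sums did not overlap. Ctsz, a carboxypeptidase, was read in 88.8% of C1qb, 86.2% of Csf1r, 51.4% of Cd79a and 18.9% of Cd3e cells.

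Ctsa, a serine carboxypeptidase that also protects beta-galactosidase and neuraminidase in the lysosome, had summed levels of 2016 rpm in C1qb, 1076 in Csf1r, 609.9 in S100a8, 473 in Cd79a and 351 in Cd3e cells, and was read in 45.3 to 94.4% of the cells of a gate. Cd68, the macrophage membrane marker, was read in few cells of the lymphocyte gates. It was read in 88% of C1qb cells and 75 of 87 Csf1r cells (86.2%), but in 6 of 74 Cd79a cells and 5.66% of Cd3e cells (2.11 to 11.9%). Its Cd3e sums were 9.81, 2.14, 2.27, 0.0688 and 0 rpm from fresh to day 3. A sum with no read allows up to 3 reads, and at day 3 the count of 0 of 7 Cd3e cells allows a share of up to 42.9%.

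**Figure D3:**
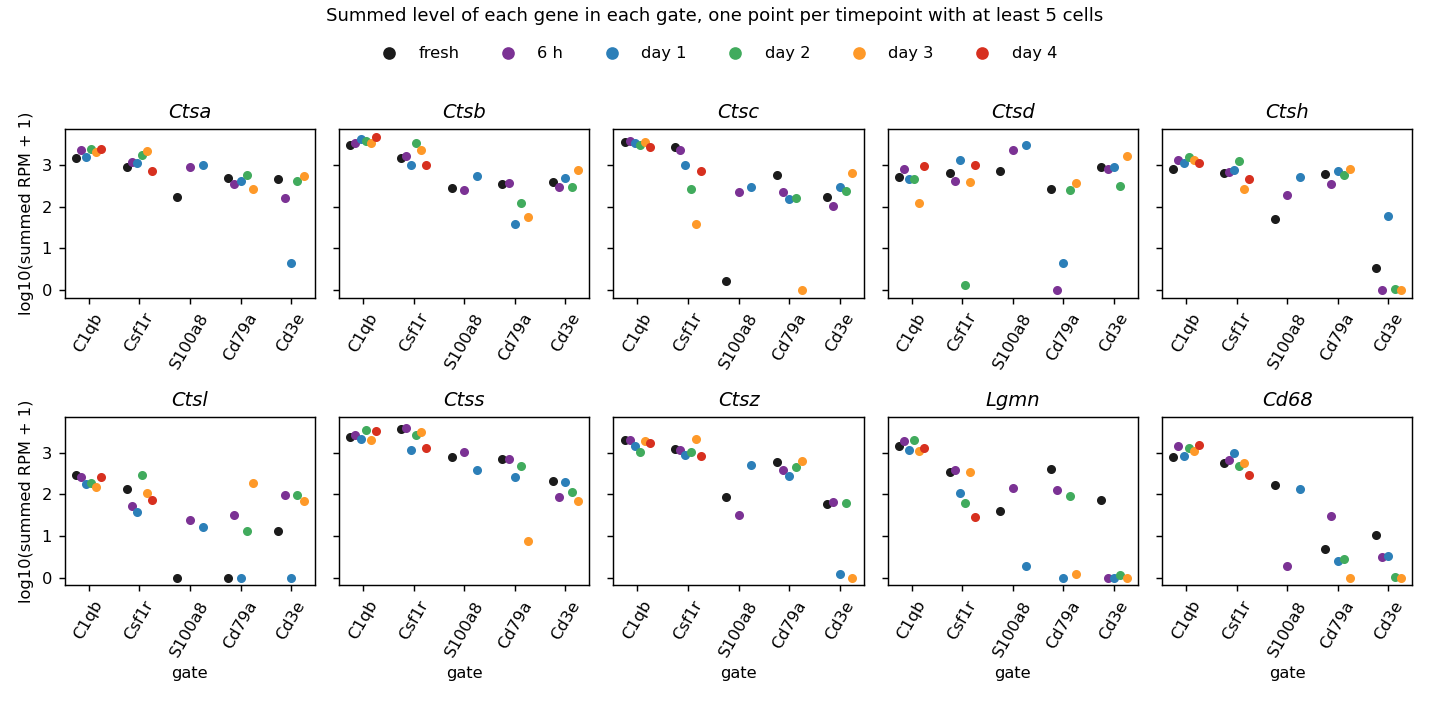
Each panel is 1 gene and each point the summed level of a gate at a timepoint with at least 5 cells, on a scale of log10(rpm + 1), with gates on the horizontal axis and colours for timepoints. In 9 panels the C1qb points lie above all Cd3e points, and the Ctsd panel is the exception.

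Sums of C1qb and Cd3e cells were compared over the 5 timepoints with at least 5 cells in both gates, with the timepoint as a block. By edgeR's quasi-likelihood test with Benjamini-Hochberg adjustment over 8453 genes, 270 genes passed an adjusted p of 0.05, and 2.18% of the genes tested were higher in C1qb cells. Of the 10 members 6 rose in C1qb over Cd3e cells: Ctsb, Ctsc, Ctsh, Ctss, Lgmn and Cd68. The log2 difference was 3.17 ± 0.30 (SE, 5 timepoints) for Ctsb (adjusted p = 0.000644), 3.94 ± 0.37 for Ctsc (adjusted p = 0.000644) and 4.45 ± 0.41 for Ctss (adjusted p = 0.000582), against a median of 0.37 over all genes tested, which was between -0.05 and 1.07 when 1 timepoint was left out and -0.02 without the timepoint block. These 3 also passed in each of the 15 alternative fits. Ctsh (adjusted p = 0.0267), Lgmn (0.0119) and Cd68 (0.0101) had Cd3e sums without reads, so that no fold is given. Their calls depended on single timepoints: Ctsh was lost without 6 h (adjusted p = 0.0623), day 2 (0.0715) or day 3 (0.126), Lgmn without day 1 (0.0884) or day 3 (0.0773), and Cd68 without day 1 (0.0637). Without the timepoint block Ctsh (0.0716) and Lgmn (0.112) did not pass either. Ctsa (3.26 ± 0.96, adjusted p = 0.144), Ctsz (0.103) and Ctsl (0.693) did not pass (they did in 3, 5 and 1 of the 15 alternative fits), although 9 of the 10 members, all but Ctsd, had every C1qb sum above every Cd3e sum, which held for 6.57% of genes.

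C1qb cells were also set against Cd79a cells. Over 5 timepoints 2.09% of 7894 genes were higher in C1qb cells, and 4 members rose, Ctsa (log2 difference 2.52 ± 0.36, adjusted p = 0.00702), Ctsb (5.06 ± 0.70, 0.00576), Ctsz (2.15 ± 0.35, 0.0119) and Cd68 (adjusted p = 0.00848), by the same edgeR test. The call of Ctsz was lost without day 1 (adjusted p = 0.0715) or day 3 (0.0548), with a gate minimum of 100 reads (0.0560) and with cells put in the gate of their largest count (0.159), which also ended that of Ctsa (0.0972). Cd68 was lost with a gate minimum of 1 read (0.0988). Of the members that did not pass, Ctsc (adjusted p = 0.147) and Ctss (0.115) passed in 5 each of the 15 alternative fits. Ctsh, Ctsl and Lgmn did in 1 each and Ctsd in none. Of the 10 members, 7 had sums that did not overlap and were higher, as 6.06% of genes did. Ctsh was the closest, with a log2 difference of 1.31 ± 0.37 (adjusted p = 0.143) and C1qb sums of 790.4 to 1535 rpm against 355 to 792 rpm in Cd79a cells.

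Between C1qb and Csf1r cells, over 6 timepoints, no member passed by edgeR, where 15 of 7893 genes did (0.190%). An unadjusted p under 0.05 was reached by 6 of the 10 members and by 538 of the 7893 genes. DESeq2's Wald test, the other tool run, called 1549 genes here and 6 members, all higher in C1qb cells: Lgmn (adjusted p = 1.34e-10), Ctsb (0.000523), Ctsh (0.00842), Ctsc (0.00866), Cd68 (0.0164) and Ctsa (0.0379). By edgeR, Lgmn (adjusted p = 0.00543), Ctsb (0.0264) and Ctsc (0.0450) passed without the filter on low counts, and Lgmn (0.0165) passed with cells thinned to 100000 counts. Lgmn came nearest, with a log2 difference of 3.35 ± 0.68 (adjusted p = 0.117), higher in C1qb cells at 6 of 6 timepoints and without overlap, which 1.39% of genes showed in that direction. Ctsb followed with 1.26 ± 0.32 (adjusted p = 0.23, 6 of 6 timepoints). For Ctss the difference was 0.21 ± 0.36, with the C1qb gate higher at 3 timepoints and lower at 3. Where cells went to the gate of whichever gate gene had the most reads, 73 cells were left in the C1qb gate and the Lgmn difference was -0.01.

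C1qb and S100a8 cells could be compared at 3 timepoints, fresh, 6 h and day 1. With so few sums, the variance used for a gene leans on that of all genes. The p-values thus do not rest on the 3 timepoints alone. Here 1.04% of 6812 genes were higher in C1qb cells, and 2 members rose, Ctsc (log2 difference 4.82 ± 1.19, adjusted p = 0.00629) and Lgmn (adjusted p = 0.026), whose S100a8 sums were 0.888 to 143.6 rpm, by the same edgeR test. The Ctsc difference was not stable in size, with 3.28 without fresh cells, 7.34 without 6 h, 7.40 without day 1 and 10.99 with a gate minimum of 1 read. Ctsb was just outside (2.91 ± 0.90, adjusted p = 0.0552). Without day 1, where the S100a8 gate holds 5 cells, edgeR called no gene at all (398 had an unadjusted p under 0.05), while without fresh cells Ctsc was at an adjusted p of 0.163 and Lgmn at 0.261, and without 6 h Lgmn was at 0.0657. Without the timepoint block neither passed (0.219 and 0.161), and Lgmn did not with a gate minimum of 1 read (0.112) or without the filter on low counts (0.110). Sums were higher without overlap for 9 members, but this held for 27.6% of all genes in a comparison of 3 against 3. The median difference over all genes was 1.97 here, with values of 0.68 without day 1, 1.30 without fresh cells, 3.81 without 6 h and 0.72 without the timepoint block.

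Csf1r cells were set against the lymphocyte gates over 5 timepoints each. Over Cd3e cells 2.39% of 7496 genes and 4 members rose, Ctsb (log2 difference 2.38 ± 0.44, adjusted p = 0.00821), Ctss (4.77 ± 0.51, 0.000253), Ctsh (adjusted p = 0.0121) and Cd68 (0.00381). Ctsz (adjusted p = 0.0534) and Lgmn (0.0566) lay just outside and passed in 4 and 5 of the 15 alternative fits. Ctsa did in 3 and Ctsc in 1. Over Cd79a cells 1.84% of 6901 genes and 3 members rose, Ctsb (3.95 ± 0.67, 0.00343), Ctss (3.21 ± 0.79, 0.0412) and Cd68 (0.00525). Here Ctsa passed in 2 of the 15 alternative fits, and Ctsc, Ctsl and Ctsz in 1 each. Every Csf1r sum lay above every Cd3e sum for 6 members (4.12% of genes) and above every Cd79a sum for 5 (3.93%). Ctss against Cd3e cells kept its call in each of the 15 alternative fits, but Ctsb was lost when fresh, 6 h, day 2 or day 3 was left out (adjusted p = 0.0513 to 0.0891), Ctsh without day 2 or day 3 (0.116 to 0.123), and Cd68 without day 1 (0.0506). Gate minimums of 1 and of 100 reads also ended the calls of Ctsb (adjusted p = 0.116 and 0.0776), Ctsh (0.163 and 0.129) and Cd68 (0.0869 and 0.0687), and Ctsh was at 0.0990 without the timepoint block. Against Cd79a cells Ctss was lost without fresh cells, 6 h or day 2 (0.0822 to 0.203), and Ctsb and Cd68 without day 2 (0.0512 and 0.0506). With a gate minimum of 1 read Ctss (adjusted p = 0.353), Ctsb (0.164) and Cd68 (0.366) did not pass. Ctss kept its call in 7 of the 15 alternative fits, and was lost as well with cells in the gate of their largest count (0.0510), with DESeq2's size factors (0.0987), without the timepoint block (0.0545) and with timepoint and pool as sample (0.115). Between Cd79a and Cd3e cells none of the 9 members tested passed by edgeR, where 48 of 7012 genes did (0.685%). An unadjusted p under 0.05 was reached by 500 of the 7012 genes and by 2 members, Ctsh (adjusted p = 0.136) and Ctsz (0.575). Both were higher in Cd79a cells without overlap, as 2.37% of genes were. Lgmn had reads in too few of these sums to pass the filter on low counts. Ctsh passed by DESeq2's Wald test (adjusted p = 1.36e-10), and by edgeR without that filter (0.0441) and with cells thinned to 100000 counts (0.0239), and Ctsz passed by DESeq2 (3.90e-06).

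Ctsd, the main aspartic protease of the lysosome, had another distribution than the other 9 genes. Its summed level over all timepoints was 2051 rpm in S100a8, 818 in Cd3e, 626 in Csf1r, 410.1 in C1qb and 184.2 in Cd79a cells. The S100a8 value includes 1 cell of day 2 at 12281 rpm. In fresh cells the Cd3e sum (909.8 rpm) was above the S100a8 sum (703.9 rpm), and at day 1 60% of S100a8 against 68.2% of C1qb cells had a read. It was read in 78.1% of S100a8 cells (60 to 90.7%), 65.1% of Cd3e cells (55.2 to 74.1%), 44% of C1qb cells (35.1 to 53.2%) and 14.9% of Cd79a cells (7.66 to 25%). Over all timepoints Cd3e cells thus had reads of Ctsd more often than C1qb cells, and for the other 9 genes it was the other way round. By timepoint the direction for Ctsd turned: C1qb cells had it more often at 6 h (60% against 55%) and day 1 (68.2% against 57.1%), the shares in fresh cells were 62.5 and 66.04%, and Cd3e cells had it more often at day 2 (68.8% against 46.7%) and day 3 (71.4% against 27.8%). Over timepoints the sums were 523, 810.0, 459, 459, 119.8 and 931 rpm in C1qb cells from fresh to day 4, 909.8, 790.2, 917, 316 and 1634 rpm in Cd3e cells from fresh to day 3, and 703.9, 2262 and 2998 rpm in S100a8 cells from fresh to day 1. The C1qb and Cd3e sums overlap. The fitted differences did not pass the edgeR test: -0.81 ± 0.63 on the log2 scale for C1qb minus Cd3e (adjusted p = 0.856, lower at 3 of 5 timepoints) and -2.0 ± 0.96 for C1qb minus S100a8 (adjusted p = 0.417, lower at 3 of 3). Across 22 sums of a gate and timepoint with at least 10 cells, cells in none of the gates included, Spearman's rho of Ctsd with the mean of the other members was -0.17, where the other 9 genes had 0.56 to 0.89, a description of sums that share timepoints and gates. Ctsd shares 34.4% of its exon bases with the overlapping gene Gm49369 on the same strand (GENCODE M21). Gm49369 has no row in the table, so the level of Ctsd is uncertain in that reads of Gm49369 may have been counted as Ctsd. This was not tested. Ctsl, Ctsa and Ctsb share 26.8, 17.4 and 12.8% of their exon bases with other genes, and counting ignored strand.

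**Figure D4:**
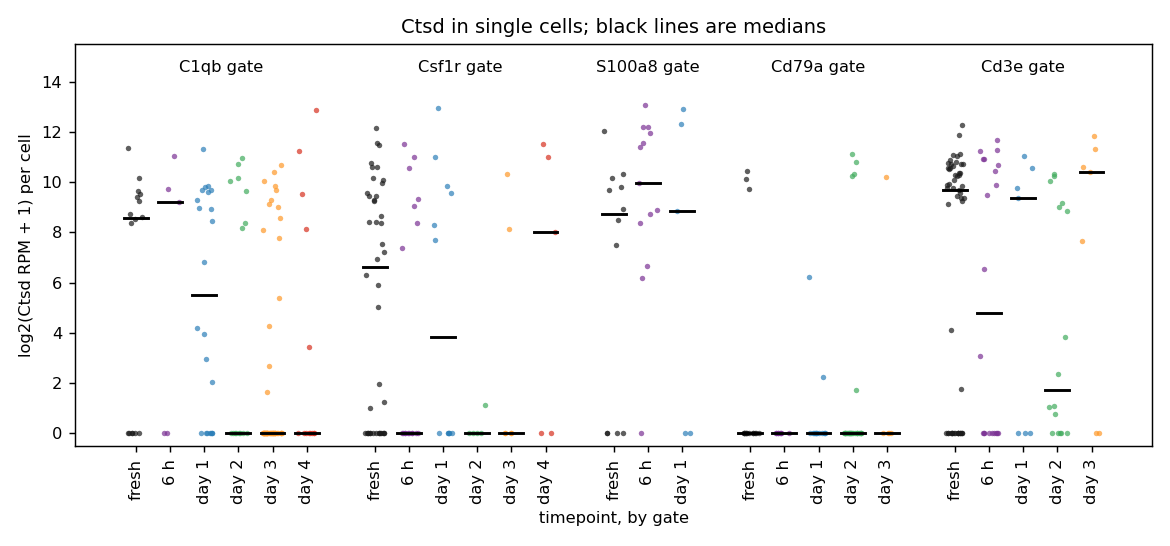
Ctsd in single cells, as log2(rpm + 1) on the vertical axis, by gate and timepoint (horizontal axis, at least 5 cells each), with medians as black lines. Every gate holds cells without a read, and the C1qb medians at day 2, day 3 and day 4 are at 0.

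Storage was examined within each gate by the log2 ratio of summed rpm to fresh cells, without a test, since a timepoint is 1 sample. In C1qb cells the 10 genes together had 16454, 19821, 16659.9, 19293, 16935 and 20243 rpm from fresh to day 4. All 10 genes stayed within 2-fold of fresh at day 1, day 2 and day 4, and 9 did at day 3. The share of all genes past 2-fold was 44.6, 46.1, 44.3 and 50.5% in this order of days (1 to 4), over the 5129 to 7257 genes with 50 or more counts in each sum. The ratios of the 10 genes ran from -0.76 (Ctsl) to 0.52 (Ctsh) at day 1, from -0.93 (Ctsz) to 0.96 (Ctsh) at day 2 and from -0.41 (Ctsc) to 0.96 (Cd68) at day 4. For scale, the fresh C1qb cells of the pair of library pools (8 cells each) differed by log2 ratios of -1.13 (Ctss, lower in pool IM834) to 1.26 (Ctsa), so that these sums alone span more than 2-fold. No sum was compared at 6 h, where the gate holds 5 cells.

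The exception was Ctsd at day 3, with 119.8 rpm in 54 cells against 523 rpm in 16 fresh cells, which is 4.37-fold lower (log2 ratio -2.13). It was read in 15 of 54 day 3 cells (27.8%, 16.5 to 41.6%) and 10 of 16 fresh cells (62.5%, 35.4 to 84.8%). Day 3 cells all belong to pool IM834, and against the 8 fresh cells of that pool the log2 ratio was -1.49. Against day 1 cells, which belong to the same pool, it was -1.94, where 46.7% of genes were past 2-fold. At day 4 the sum was 931 rpm, of which 1 of the 13 cells gave 54%.

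**Figure D5:**
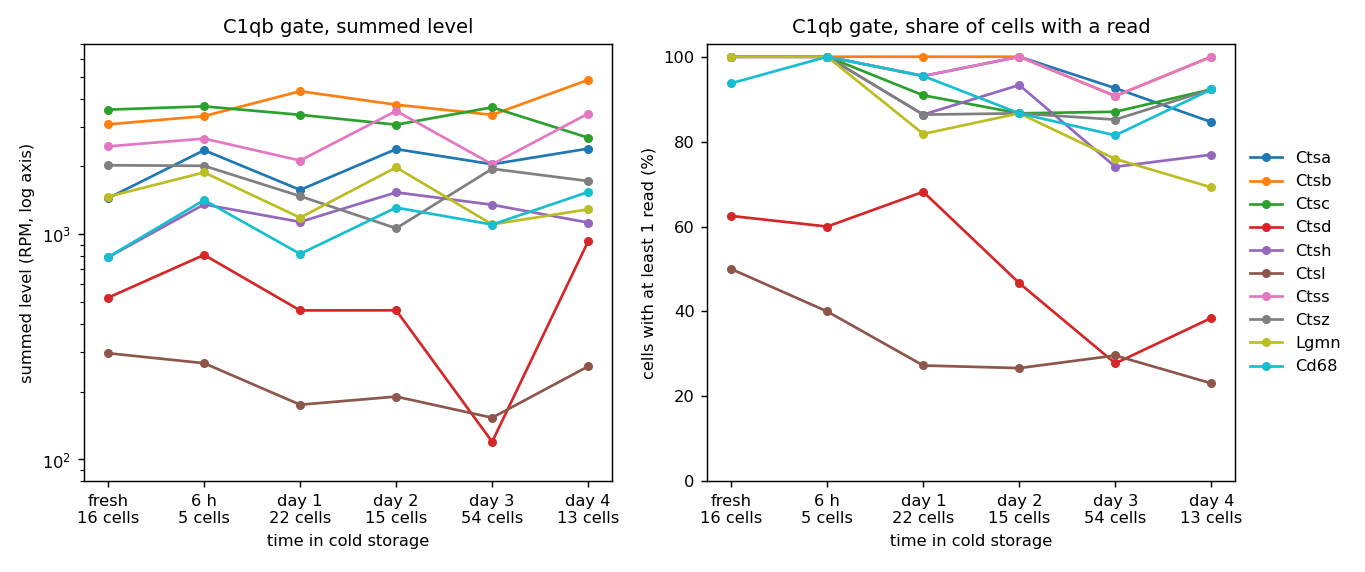
C1qb gate over storage time, with the summed level in rpm (log axis) on the left and the share of cells with at least 1 read (%) on the right, 1 line per gene and the number of cells under each timepoint. Summed levels stay within 2-fold of fresh except for Ctsd at day 3, while most shares of cells with a read lie below the fresh value from day 1 on.

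The same cells gave another picture when each cell counted equally. All 16 fresh C1qb cells had reads of Ctsa, Ctsb, Ctsc, Ctsh, Ctss, Ctsz and Lgmn, whereas at day 3 the shares were 92.6, 90.7, 87, 74.1, 90.7, 85.2 and 75.9%. These 7 were at 100% in fresh cells and could not be higher. Over all genes compared the share of cells with a read differed from fresh by a median of -6.82, -10.0, -11.3 and -9.62 percentage points at day 1 to day 4, and over the 10 members by -6.82, -10.2, -13.9 and -11.5. On this measure the members' difference is close to that of all genes, which were not matched to the members in level. Lgmn and Ctsh were lowest among these 7 at day 3, and at day 4 Lgmn was read in 9 of 13 cells (69.2%, 38.6 to 90.9%). The mean of log2(rpm + 1) over cells differed from that of fresh cells by a median over the 10 genes of -1.33, -0.36, -1.49 and -1.90 at day 1, 2, 3 and 4. Over all genes compared the medians were -0.42, -0.41, -0.67 and -0.56, so on this measure the members were lower than all genes at day 1, 3 and 4. Genes read per C1qb cell were lower too, from a median of 2531 in fresh cells to 1693.5 at day 3 and 1291 at day 4, and the cells with a read of Ptprc (the gene of Cd45) were all of the fresh ones, 77.8% at day 3 and 53.8% at day 4. The part of these in the members' shares was not tested. With only cells that had a Ptprc read, the median log2 ratio of sums was -0.02 at day 3 and 0.33 at day 4. C1qb cells at or below the median of 1852 genes (63 cells, of which 33 were from day 3) held 1.63% of their counts on the 10 genes and the 62 cells above it 1.88%.

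In the other gates fewer ratios could be formed. In Csf1r cells at 6 h 9 of 10 genes were within 2-fold of fresh, with Ctsl 2.56-fold lower, where 40.3% of genes were past 2-fold. At day 1 (12 cells, pool IM834, against 42 fresh cells of which 4 are from that pool) Ctsc, Ctsl, Ctss and Lgmn were lower by 2.76, 3.68, 3.27 and 3.27-fold and Ctsd was 2.08-fold higher, with 51.5% of genes past 2-fold. Ctsd turned to a log2 ratio of -0.35 without the 1 cell that held 73.7% of its reads. Counted per cell, Lgmn and Ctsl went the other way: Lgmn was read in 50% of fresh and 83.3% of day 1 cells and Ctsl in 26.2 and 33.3%, and the mean of log2(rpm + 1) over cells was higher at day 1 by 0.73 and 0.25. Ctss in these cells went from 3833 rpm with reads in 100% of fresh cells to 1172 rpm with reads in 91.7% of day 1 cells.

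In Cd79a cells Ctsb, Ctsc, Ctss and Ctsz were past 2-fold lower at day 1, out of 6 members with 50 counts in both sums (48.3% of genes past 2-fold), and Ctsb, Ctsc and Lgmn at day 2, out of 8 (49.3%). All fresh and day 1 Cd79a cells belong to pool IM834 and all day 2 cells to pool IM793, so at day 2 storage and pool cannot be told apart. Lgmn was read in 9 of 16 fresh and 0 of 14 day 1 Cd79a cells, which allows a share of up to 21.4%. In Cd3e cells Ctsa and Ctss were past 2-fold lower and Ctsl higher at 6 h (45.8% of genes), and Ctsd lower and Ctsl higher at day 2 (52.2%), but 1 cell gave 97.9% of the Ctsl reads at 6 h. The 6 h and day 2 cells belong to pool IM793, and against the 9 fresh Cd3e cells of that pool the Ctss ratio at 6 h turned from -1.28 to 1.05. In S100a8 cells at 6 h, 4 of the 7 members with enough reads were past 2-fold higher and Ctsz was lower, where 51.1% of genes were past 2-fold. The median log2 ratio of the 7 was 1.68, and -0.07 when the cell with most reads of each gene was left out. There Ctsd was read in 12 of 13 cells at 6 h and 8 of 12 fresh cells, all of pool IM793.

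Of 81 other lysosomal genes on a list of proteases, hydrolases, membrane proteins, proton pump subunits, sorting factors and protease inhibitors, 70 could be tested between C1qb and Cd3e cells, and 8 rose (11.4%, against 2.18% of all genes) and 1 fell (1.02% of all genes did), with a median log2 difference of 2.95 against 0.37. Ctsw, a cathepsin of cytotoxic lymphocytes, was the one that fell (adjusted p = 0.0164), with no read in any C1qb cell (which allows a share of up to 2.4%) and 269.4 rpm in Cd3e cells, 35.8% of which had a read. Lamp2, a lysosomal membrane protein gene, and Asah1, the gene of acid ceramidase, rose (adjusted p = 0.0237 and 0.0258), with Lamp2 read in 77.6% of C1qb and 10.4% of Cd3e cells. Of the 13 membrane protein genes 4 rose, of the 28 hydrolase and activator genes 3, and of the 15 proton pump genes tested none by edgeR. An unadjusted p under 0.05 was reached by 1 proton pump gene and by 1019 of all 8453 genes. Over Cd79a cells 9 of 68 rose (13.2%, against 2.09% of all genes) and none fell. Among those that rose were Slc11a1, a metal ion transporter of phagosomes (adjusted p = 8.89e-05), and Cd63, a tetraspanin (0.0069). An unadjusted p under 0.05 was reached by 28 of the 68 and by 972 of all 7894 genes. Between C1qb and Csf1r cells none of 69 passed by edgeR, where 0.190% of all genes did. An unadjusted p under 0.05 was reached by 15 of the 69 and by 538 of all 7893 genes. Against S100a8 cells 2 of 70 fell, as did 1.67% of all genes, and they were Stfa2 and Stfa3 (adjusted p = 8.7e-05 and 0.0045), members of the stefin family of cysteine protease inhibitors, with Stfa2 read in 71.9% of S100a8 cells and in 1 C1qb cell. Csf1r cells had 7 of 66 higher (10.6%, against 2.39% of all genes) and 1 lower (0.974%) than Cd3e cells, and 4 of 63 higher than Cd79a cells (6.35%, against 1.84%).

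Across the 22 sums the 5 genes outside the group whose log2(CPM + 1) ran most like the mean of the 10 were Tor3a (Spearman's rho 0.94), Hexa (0.88), Sdc3 (0.88), Atp6v0b (0.87) and Ly86 (0.87), out of 10618 genes. Hexa, the alpha subunit of a lysosomal hexosaminidase, had 1333 rpm in C1qb, 449 in Csf1r, 220 in S100a8, 77.9 in Cd79a and 55.9 in Cd3e cells. From cell to cell the 10 genes were only loosely tied. Over the 45 pairs of members, the median Spearman's rho of rpm was 0.17 in the 29 C1qb cells of pool IM793 (-0.12 to 0.60) and 0.17 in the 94 of pool IM834 (-0.03 to 0.39), with cells that share libraries, depth and timepoints.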

How the data were processed

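Single-cell RNA was measured in 502 Cd45+ kidney cells at 6 timepoints. The authors deposited 1 table of raw counts per gene and cell. According to the study's methods, reads were trimmed to 75 bp, duplicates were removed with picard, reads were aligned with STAR to GRCm38 and counted with HTSeq in intersection-strict mode without regard to strand, and cells under 1000 reads were removed. Their versions are not stated by any source used here. Reads carry no molecular identifiers, so intervals (exact binomial and Poisson, 95%) cover counting error only.

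Spike-in and vector rows (0.1396% of counts) were left out. Rn18s.rs5 took 6.60% of gene counts. No doublet caller was run, and cells with at least 10 reads of more than 1 of Cd3e, Cd79a and C1qb were set aside. Counts were summed per gate and timepoint, and gates were compared with at least 5 cells in both gates at 3 or more timepoints (edgeR 4.0.16 in R 4.3.3, TMM factors, filterByExpr, quasi-likelihood test, timepoint as block, Benjamini-Hochberg adjustment over all genes, threshold 0.05). The timepoint pairs the sums because, according to the methods, the tissue of a timepoint came from 1 mouse and was dissociated together, but fresh cells are in a pair of pools that may be separate mice: all fresh Cd79a cells are from IM834 and 38 of 42 fresh Csf1r cells from IM793. Storage was described by log2 ratios of summed rpm, with at least 10 cells and 50 counts in each sum and no test. The code was tested on simulated data. Alternatives were other gate minimums (1 or 100 reads) or the gate of the largest count, no filter, DESeq2 1.42.0 as test or for size factors, no block, timepoint and pool as sample, thinning to 100000 counts, each timepoint left out, and means of log2(rpm + 1) over cells. The members and lists were chosen with earlier results of these data known. Named genes were the members, gate genes, markers, the 5 genes most alike in pattern, and of the other lysosomal genes the 2 largest differences in each direction among those that passed. Sequences are RefSeq's, on GRCm38.p6, and exon lengths are from GENCODE M21.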

Additional observations from a re-analysis of the deposited data

Results flagged for a closer look

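Of 44 combinations of a gate with a member or with the 10 genes together, 6 had a timepoint that stood apart from the others by Dixon's criterion. Chance alone passes it in about 1 in 20 for normally distributed values. These sums are skewed and several are 0, so that rate does not apply here and 6 cannot be read as an excess. All 6 were the highest value of their gate. In the Cd3e gate Cd68 had 9.81 rpm in fresh cells (the next value was 2.27), Lgmn 72.3 rpm in fresh cells (next 0.138) and Ctsh 60.7 rpm at day 1 (next 2.40). In the Cd79a gate Cd68 had 28.8 rpm at 6 h (next 3.78) and Ctsl 192.7 rpm at day 3 (next 31.4). In the Csf1r gate Ctsz had 2130.4 rpm at day 3 (next 1256). In 5 of these sums 1 cell gave most of the reads: all of them for Ctsh in the Cd3e gate and for Cd68 and Ctsl in the Cd79a gate, 91.8% for Cd68 in the Cd3e gate and 66.4% for Ctsz in the Csf1r gate. For Lgmn in fresh Cd3e cells the cell with most reads gave 32.7%.

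Over the preserved timepoints with at least 10 cells (day 1 to day 4 in C1qb, 6 h and day 1 in Csf1r, day 1 and day 2 in Cd79a, 6 h and day 2 in Cd3e cells), some members had only ratios of 1 sign against fresh cells in a gate and only ratios of the other sign in another gate. These differences between gates were not tested, and sums of fewer cells did not always go the same way: in Cd3e cells Ctsb had 491 rpm at day 1 and 779 at day 3 against 397 fresh, Ctsa 553 at day 3 against 466, Ctsz 0.227 at day 1 against 58.4 and Ctsl 0 at day 1 against 12.4, in Csf1r cells Ctsz had 2130.4 at day 3 against 1256, Ctsl 289.5 at day 2 against 134.8 and Ctsa 711 at day 4 against 916, and in Cd79a cells Ctsb had 373 at 6 h against 358 and Ctsz 645 at day 3 against 606. The mean log2 ratio over these timepoints for Ctsa was 0.52 in C1qb and 0.33 in Csf1r cells against -0.84 in Cd3e cells. The Cd3e cells of 6 h and day 2 are all of pool IM793 and most fresh Cd3e cells of IM834. Against the 9 fresh Cd3e cells of pool IM793 the median ratio of the members turned to 0.55 at 6 h and 0.45 at day 2, and the ratio of Ctsa was -1.35 and 0.0072, that of Ctsb -0.45 and -0.41, that of Ctsl 2.95 and 2.91 and that of Ctsz 0.55 and 0.45. Against all fresh cells of a gate, the mean log2 ratio of Ctsb was 0.39 in C1qb cells against -0.40 in Cd3e cells (6 h and day 2 only) and -2.39 in Cd79a cells. Ctsl had 2.97 in Cd3e cells against -0.64 in C1qb and -1.62 in Csf1r cells, but it was read in 2 of 53 fresh, 2 of 20 6 h and 2 of 16 day 2 Cd3e cells, and 1 cell gave 97.9% of its reads at 6 h. Ctsz had 0.13 in Cd3e cells against -0.42 in C1qb, -0.78 in Cd79a and -0.32 in Csf1r cells.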

How the results depend on the processing

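Among the members' gate differences, 881 of 1004 alternative values kept direction and side of the threshold, 49 lost a call, 55 gained one and 19 turned direction. Of 1160 alternative storage ratios, 1009 were counted as close to the reported value, most of them within 0.5 on the log2 scale. A turn of direction was counted only where the reported ratio was 2-fold or more, and there were 8. Smaller ratios that changed sign were not counted as turned, so the number of changes of sign is higher. The causes were not tested.

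The share of tested genes past the threshold depended on the setting. DESeq2's Wald test called 26.7% (C1qb minus Cd3e), 27.5% (C1qb minus Cd79a), 19.6% (C1qb minus Csf1r), 30.8% (C1qb minus S100a8), 21.1% (Csf1r minus Cd3e), 18.4% (Csf1r minus Cd79a) and 18.4% (Cd79a minus Cd3e), where edgeR called 3.19, 2.71, 0.190, 2.72, 3.36, 2.62 and 0.685%. With no replicate block, that is without pairing by timepoint, edgeR called 4.85% (C1qb minus Cd3e), 4.78% (C1qb minus Cd79a), 0.558% (C1qb minus S100a8) and 1.63% (Cd79a minus Cd3e), the Ctsd difference of C1qb minus Csf1r was -0.21, and adjusted p was 0.0716 for Ctsh and 0.112 for Lgmn in C1qb minus Cd3e, and 0.219 for Ctsc and 0.161 for Lgmn in C1qb minus S100a8. With a gate minimum of 1 read the shares were 1.54% (C1qb minus Cd79a), 0.0334% (C1qb minus Csf1r), 1.84% (C1qb minus S100a8), 0.263% (Csf1r minus Cd3e) and 0.329% (Csf1r minus Cd79a), and with 100 reads 0.0237% (C1qb minus Csf1r) and 0.770% (Csf1r minus Cd3e). Without the filter on low counts, which adds genes to the test, they were 1.78% (C1qb minus Cd3e), 1.92% (C1qb minus Cd79a), 0.42% (C1qb minus Csf1r), 0.973% (C1qb minus S100a8), 2.36% (Csf1r minus Cd3e), 2.03% (Csf1r minus Cd79a) and 0.465% (Cd79a minus Cd3e). Thinning gave 5.405% (C1qb minus Cd3e), 4.49% (C1qb minus Cd79a), 0.807% (C1qb minus Csf1r), 4.50% (Csf1r minus Cd79a) and 1.38% (Cd79a minus Cd3e), timepoint and pool as sample 1.89% (Csf1r minus Cd79a), and the gate of the largest count 0.0121% (C1qb minus Csf1r). Leaving out 1 timepoint gave 1.16 to 2.44%, 1.46 to 2.47%, 0.0249 to 0.169%, 0 to 1.5%, 1.10 to 2.43%, 1.51 to 2.29% and 0.297 to 0.529% in the order above. Leaving out 1 timepoint gave medians of the log2 difference over all genes of -0.05 to 1.07 (C1qb minus Cd3e), 0.12 to 1.03 (C1qb minus Cd79a), 0.14 to 1.10 (C1qb minus Csf1r), 0.68 to 3.81 (C1qb minus S100a8), -0.56 to 0.13 (Csf1r minus Cd3e), -0.65 to 0.51 (Csf1r minus Cd79a) and -0.48 to 0.07 (Cd79a minus Cd3e), and the fit without the block -0.02, 0.15, 0.16, 0.72, -0.05, -0.13 and -0.05. With DESeq2's size factors in edgeR the median log2 difference over all genes moved from 0.37 to 0.59 (C1qb minus Cd3e), from -0.11 to -0.28 (Csf1r minus Cd79a) and from -0.17 to -0.03 (Cd79a minus Cd3e). With a gate minimum of 100 reads or the gate of the largest count, C1qb and S100a8 cells shared too few timepoints with at least 5 cells in both gates for a fit.

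For C1qb minus Csf1r the gate of the largest count turned Ctsc (-0.035), Ctsd (-0.80), Ctsh (-0.072), Ctsl (-0.89), Ctss (-0.17), Ctsz (-0.10) and Lgmn (-0.0074). Ctsd was -0.63 with a gate minimum of 1 read. Ctss was -0.34 and -0.015 with minimums of 1 and 100 reads and -0.075 with timepoint and pool as sample. Ctsc in Cd79a minus Cd3e was 0.40 with a minimum of 100 reads. Leaving out 1 timepoint gave log2 differences of -0.56 to 0.56 for Ctsd in C1qb minus Csf1r, -0.13 to 0.37 for Ctss in C1qb minus Csf1r, -0.11 to 0.70 for Ctsh in Csf1r minus Cd79a and -1.13 to 0.38 for Ctsc in Cd79a minus Cd3e.

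With means of log2(rpm + 1) over cells, the median of the members was -1.33, -0.36, -1.49 and -1.90 in C1qb cells at day 1 to day 4, -0.61 in Csf1r cells at 6 h (-0.72 within pool IM793) and -1.28 in Cd79a cells at day 2, and in Csf1r cells at day 1 Ctsd was -0.33, Ctsl 0.25 and Lgmn 0.73, and Ctss in Cd3e cells at 6 h 0.15. For S100a8 cells at 6 h, all of pool IM793, the median was 0.74 with a gate minimum of 100 reads, 0.42 as means over cells, 0.15 thinned, -0.0705 without the top cell and 1.09 with cells that had a Ptprc read, and Lgmn thinned was -0.55. In Csf1r cells at day 1 Ctsd was -0.35 without the top cell. The Cd79a median at day 1 was -0.64 with a gate minimum of 1 read, also within pool IM834. The Cd3e median was -1.02 at 6 h with no minimum count and -0.84 at day 2 without the top cell. Against fresh cells of the same pool it was 0.55 and 0.45, and Ctss at 6 h was 1.05. The same-pool, Ptprc and day 3 against day 1 values were chosen after seeing the data. Storage and mouse cannot be told apart, nor storage and pool where a gate has no fresh cells of a timepoint's pool, as for Cd79a cells at day 2.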
